A study of Homo sapiens with 18 samples.

Results

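The clustered protocadherins are the cadherin-related cell-surface proteins encoded by 3 neighbouring gene arrays, called alpha, beta and gamma. Members were taken by symbol, as every row of the expression table named PCDHA, PCDHB, PCDHGA, PCDHGB or PCDHGC with a number, or PCDHAC with a number. This gave 55 of 55765 rows: 16 in the alpha cluster, 18 in the beta cluster and 21 in the gamma cluster. Of these, PCDHA14, PCDHB17 and PCDHB18, are annotated pseudogenes, and PCDHGB5 was not analysed here. All libraries came from G401, an established malignant rhabdoid tumour line. Each of 3 lines was grown with 10 µM tazemetostat, an inhibitor of the histone H3 lysine methyltransferase EZH2, or with the same volume of DMSO for 11 days, which gave 6 groups of 3 libraries described as biological triplicates. The control line, labelled WT, was edited at the AAVS1 safe harbour locus and kept RB1 intact. The lines E1 and F2 carry biallelic CRISPR/Cas9 deletions of RB1, the retinoblastoma tumour suppressor gene, and each of them is 1 clone, so that what belongs to the lost gene and what belongs to the clone cannot be told apart. The p-values measure the spread between cultures of 1 line or clone within a group, pooled over the 6 groups.

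Clustered protocadherins are best known from neurons, where each cell uses a few of many alternative promoters and displays the chosen proteins on its surface. The extracellular parts bind the same isoform on a facing membrane, which lets a neuron tell its own branches from those of other cells. In the alpha and gamma arrays each variable exon has its own promoter and is spliced to constant exons that all members of that array share. Beta genes have no such constant exons. The last members of the alpha and gamma arrays, the C-types PCDHAC1, PCDHAC2, PCDHGC3, PCDHGC4 and PCDHGC5, differ from the other variable exons in sequence and are used more uniformly across neurons. Most of the alternative promoters carry a conserved element with the core CGCT and are bound by CTCF, a DNA-binding protein that with cohesin connects them to distant enhancers.

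Promoter stretches around the letters CGCT are shown here for members on which the results turn, because the letters before them differ between the arrays. The table of promoters used holds 46 of the 55 members in 50 windows that run from 250 bases before to 50 bases after the RefSeq start (build GRCh38.p14, chromosome 5, plus strand). Each line gives 30 bases, written 5′ to 3′, with CGCT in capitals. PCDHGB2 is not shown, since its window holds CGCT at another distance from the start than the one used below.
PCDHA4, chr5:140806985-140807014: cacatgatgtCGCTctttaccacaaaatac
PCDHA11, chr5:140868889-140868918: cgcaaggtgtCGCTctttacttggtggaaa
PCDHA12, chr5:140875250-140875279: cacatgatgtCGCTctacactcagaaggtg
PCDHAC1, chr5:140926226-140926255: aaggtgtggtCGCTcacgttcaccgtcccg
PCDHAC2, chr5:140966425-140966454: gccctcctacCGCTccctttccccctcccc
PCDHB2, chr5:141094550-141094579: cgcggggtggCGCTgcagccttagaagtag
PCDHB16, chr5:141182316-141182345: cgcgtggtggCGCTgcaggttaagatgacg
PCDHB13, chr5:141213871-141213900: cgcgtggtggCGCTgcaggataagaaggca
PCDHB14, chr5:141223269-141223298: cacatggtggCGCTacaggataagacgaaa
PCDHGA4, chr5:141354966-141354995: ctctgggtgtCGCTgttcaccaatcagggg
PCDHGA10, chr5:141412937-141412966: ctctgagcgcCGCTgttcacctactaggag
PCDHGB7, chr5:141417613-141417642: gcagagcaagCGCTgacgccggggatccct

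The letters CGCT on the sense strand, 35 to 85 bases before the start, were found in 41 of the 50 member windows (82%) and in 16.4% of all 35116 promoter windows of that length. On either strand and anywhere in the window they were found in 98% of member windows and 70% of all windows. Where present, the core lay a median of 55 bases before the start (38 to 84). The letters around it differed between arrays. Of the strings of 9 letters that end in the core, the most frequent in the alpha array was GATGTCGCT, found in 9 of 13 windows (69.2%) and, over all promoter windows on both strands, in 0.105%. In the beta array it was GGTGGCGCT, in 13 of 14 windows (92.9%) against 0.501% of all. The gamma array was less uniform before the core, with AGCGCCGCT in 4 of 23 windows (17.4%) against 0.476%. The alpha string was found in 0 beta and 0 gamma windows, and the beta string in 0 alpha and 0 gamma windows. Each string contains CGCT. The distance window and the strings were chosen after the sequences had been seen, and a match describes letters only. Of the members printed, PCDHA4 and PCDHA12 have the alpha string and PCDHB2, PCDHB13, PCDHB14 and PCDHB16 the beta string, whereas PCDHA11 and the C-types PCDHAC1 and PCDHAC2 have other letters before the core. PCDHGA10 has the gamma string, and PCDHGA4 and PCDHGB7 have other letters there. Those of PCDHGB7 are shared with PCDHGB6 but match none of the strings named. For PCDHAC2 the match is to the 4 letters alone, which 54.3% of all promoter windows hold somewhere on the sense strand. Member windows held a median of 7 CpG dinucleotides (2 to 27) against 14 over all windows, and PCDHAC1, with 27, held the most.

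Libraries held 25709489 to 39314860 recovered reads, of which the 55 members together took 0.005972% to 0.01349%, or 1984 to 4840 reads. SMARCB1, whose loss defines rhabdoid tumours, had 0 reads in all 18 libraries. RB1 transcript was 2300 to 2828 normalized counts in the WT libraries and 505 to 1045 in the clone libraries, with no overlap, as the labels have it. The mitochondrial share of reads was 3.556% to 6.6%. Values are normalized counts, that is read counts divided by a size factor of the library, and are not per length unless stated. Exons shared within the arrays limit every single value: in GENCODE v29 a median of 46.6% of a gene's exonic bases in the alpha cluster and 43.8% in the gamma cluster also belonged to another gene on the same strand, against 0% in the beta cluster. Antisense exons overlapped 8 alpha, 10 beta and 1 gamma members. How the authors assigned reads in shared or antisense exons is not given in the sources used here. Reads of PCDHA14 in particular cannot be told from those of its neighbours, since all of its exonic bases are shared.

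A few members made up most of the protocadherin transcript in this line. Per kb of exon that no other gene shares, the C-type PCDHAC2 had a mean over 18 libraries of 273 normalized counts, PCDHB2 178, PCDHA12 146, PCDHA11 113, PCDHGB7 76 and PCDHAC1 39.5. Per kb of all exonic bases PCDHB2 came before PCDHAC2, at 178 and 149, followed by PCDHA12 at 69.2, PCDHA11 at 60.2, PCDHGB7 at 42.6 and PCDHAC1 at 23.2. The order of PCDHAC2 and PCDHB2 thus depends on which length is used. In WT with DMSO, PCDHAC2 held 49.2% of the normalized counts of the alpha cluster, PCDHB2 75.6% of the beta cluster and PCDHGB7 60% of the gamma cluster. These leading members stayed the same in all 6 groups, as the map of levels shows.

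**Figure D1:**
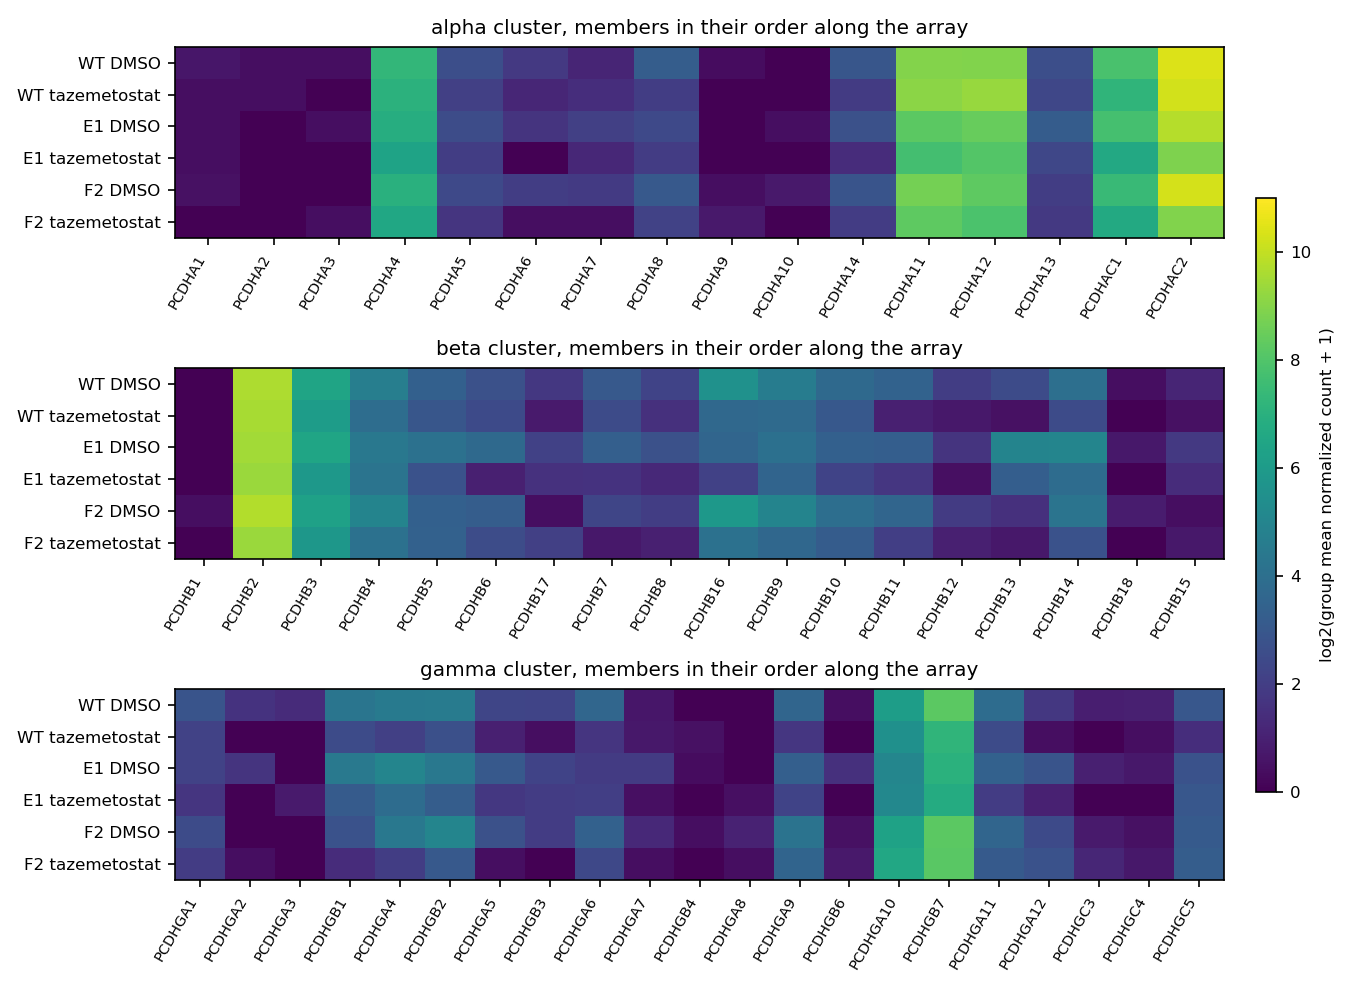
Group mean level of each of the 55 members in the 6 groups, coloured as log2(mean normalized count + 1), with members in their order along each array. PCDHAC2, PCDHA11 and PCDHA12, PCDHB2, and PCDHGB7 are the brightest of their arrays in every group, and most other members are near 0.

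The rest of the arrays was nearly silent. Of the 55 members, 15 had a mean of at least 10 normalized counts and entered the test: 5 alpha (PCDHA4, PCDHA11, PCDHA12, PCDHAC1, PCDHAC2), 6 beta (PCDHB2, PCDHB3, PCDHB4, PCDHB9, PCDHB14, PCDHB16) and 4 gamma (PCDHGA4, PCDHGA10, PCDHGB2, PCDHGB7). The lowest member inside this limit was PCDHB14, at 14.6, and the highest outside it was PCDHGB1, at 9.86. In the alpha cluster the gap was wide, from 4.91 for PCDHA8 to 117 for PCDHA4. Another 12 members, 5 alpha, 2 beta and 5 gamma, had at most 3 reads in every library and were at the floor of detection at this depth. Among the C-types, PCDHAC1 and PCDHAC2 were tested, while PCDHGC3 (0 to 1.93 normalized counts) and PCDHGC4 (0 to 2.84) stayed at the floor and PCDHGC5 lay between 0.935 and 16.5. The alpha C-types were thus detected in all libraries and the C-types of the gamma cluster hardly at all.

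The first question was how the arrays responded to EZH2 inhibition. In no line was the summed level of an array higher with tazemetostat, and in 7 of the 9 pairings of array and line all treated libraries were below the DMSO ones. In the alpha cluster the sum was 2760 ± 106 normalized counts (SD, n = 3) in untreated WT and 2682 ± 23 in treated WT, where the libraries overlapped. E1 had 1896 ± 132 and 1135 ± 18.6, and F2 had 2283 ± 75.3 and 1237 ± 70. The alpha sum was therefore 59.8% and 54.2% of its DMSO level in the clones, with no overlap, and 97.2% in WT.

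In the gamma array the control line had the larger fall. Its sum was 496 ± 8.02 with DMSO and 221 ± 27.5 with tazemetostat in WT (44.5%), 288 ± 47.8 and 198 ± 20.1 for E1 (68.5%), and 507 ± 10 and 441 ± 22.8 for F2 (87%). The treated libraries lay below the DMSO libraries in each line. The beta sum was at 85% (888 ± 29.4 from 1045 ± 37.9) in WT, 80% (785 ± 41 from 981 ± 140) in E1, where libraries overlapped, and 70.4% (787 ± 2.49 from 1119 ± 35.5) in F2. Most beta counts were those of PCDHB2, and without it the beta sum was 54.5%, 49.7% and 51.9% of its DMSO level in WT, E1 and F2. Leaving out PCDHAC2 turned the alpha sum of WT to 104% of DMSO, above all DMSO libraries. The sums were not tested. In bulk RNA, fewer cells with a transcript and less transcript per cell cannot be told apart.

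**Figure D2:**
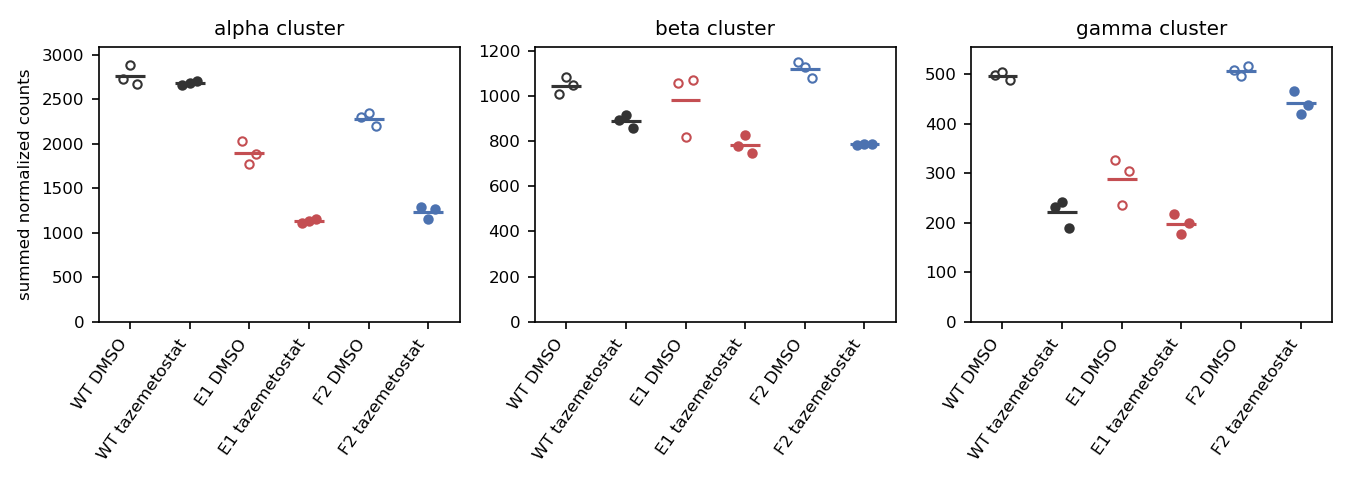
Summed normalized counts of all members of each cluster in each of the 18 libraries (open circles DMSO, filled circles tazemetostat, lines group means). The alpha sum fell to 1135 in E1 and 1237 in F2 and was 2682 in WT, whereas the gamma sum went from 496 to 221 in WT and from 507 to 441 in F2.

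Tested gene by gene, the calls with tazemetostat among the 15 tested members were falls. With limma, at a Benjamini-Hochberg adjusted p under 0.05 together with a log2 change of 1 or more in size, 5 of the 15 tested members fell in WT, 5 in E1 and 6 in F2, while in each line 0 rose. Over all 16154 genes tested, 6.77% were called lower and 14.5% higher in WT, 3.78% lower and 11.3% higher in E1, and 3.71% lower and 13.3% higher in F2. The median log2 change of the 15 members was -0.67, -0.52 and -0.73 for WT, E1 and F2, against 0.03, 0.02 and 0.02 over all genes tested. At an unadjusted p under 0.05, 1 member was higher and 8 lower in WT, 0 higher and 10 lower in E1, and 0 higher and 13 lower in F2. The share of all genes at this looser limit was not computed, here or below. Counts at that limit are therefore not read as a trait of the members. Treated and DMSO libraries were separate, with the treated ones lower, for 9 members of WT, 10 of E1 and 11 of F2. The share over all genes was 32.9%, 19.7% and 28.8%. PCDHB16, PCDHB14, PCDHGA4 and PCDHGB2 were called in all 3 lines. PCDHB14, PCDHGA4 and PCDHGB2 reached the test limit, a mean of 10 over all 18 libraries, mainly through their DMSO libraries. PCDHGB2, for one, had treated means of 5.4, 8.34 and 7.42 in WT, E1 and F2. Such a limit favours falls among low members. With a limit of 50, 9 members were tested and 1 was called in each line, as a fall. Tests without a filter are given below.

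**Figure D3:**
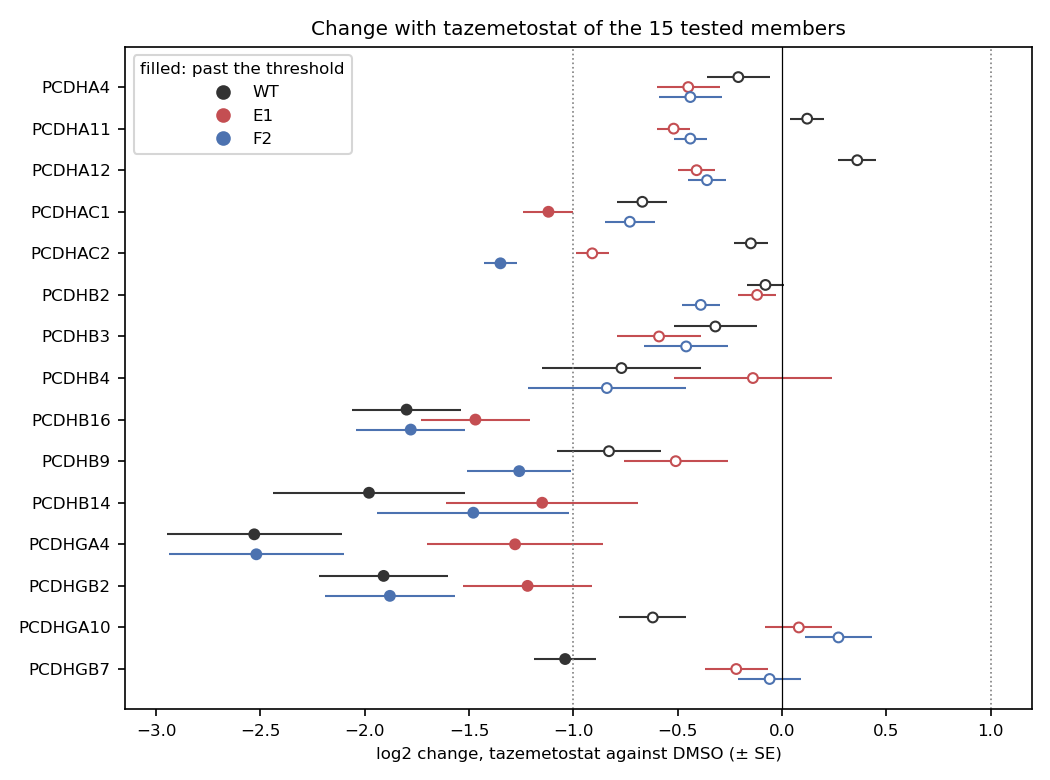
Log2 change with tazemetostat (± SE, limma on log2(normalized count + 1)) of the 15 tested members in array order, in WT, E1 and F2, with filled points past the threshold and dotted lines at a log2 change of 1 in size. No filled point lies right of 0, PCDHGA4 has the lowest values, at -2.53 in WT and -2.52 in F2, and PCDHA11, PCDHA12 and PCDHAC2 lie further left in both clones than in WT.

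Among the alternative alpha members, PCDHA12 and PCDHA11 had the highest levels per length. In WT, PCDHA11 measured 476, 499 and 517 normalized counts with DMSO and 517, 525 and 579 with tazemetostat. It measured 311, 273 and 312 with DMSO and 214, 200 and 210 with tazemetostat in E1, and 411, 436 and 409 against 316, 305 and 306 in F2. PCDHA11 was thus lower with the drug in each clone, with no overlap, and not lower in WT, where the log2 change was 0.12 ± 0.08 (limma adjusted p = 0.21) and turned to -0.03 with all libraries scaled to the same total. The changes in E1 (-0.52 ± 0.08, limma adjusted p = 2.9e-05) and F2 (-0.44 ± 0.08, limma adjusted p = 0.00016) were under the fold limit.

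PCDHA12 was the 1 tested member with an adjusted p under 0.05 in the upward direction. In WT it measured 502, 498 and 464 with DMSO and 615, 635 and 624 with tazemetostat, all treated libraries being higher. In E1 it went the other way, from 368, 352 and 328 to 264, 254 and 267, and in F2 from 332, 314 and 267 to 231, 222 and 255. The log2 change was 0.36 ± 0.09 in WT (limma adjusted p = 0.002), -0.41 ± 0.09 in E1 (limma adjusted p = 0.00088) and -0.36 ± 0.09 in F2 (limma adjusted p = 0.0024), all under the fold limit. PCDHA4 was the lowest tested alpha member. It ranged from 123 to 180 in WT, from 78.8 to 132 in E1 and from 81.8 to 126 in F2 over both treatments, with log2 changes of -0.21, -0.45 and -0.44.

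Of the C-types in the alpha cluster, PCDHAC2 fell past the threshold in F2 and PCDHAC1 in E1. PCDHAC2 measured 1319, 1461 and 1296 with DMSO and 1214, 1237 and 1217 with tazemetostat in WT, a narrow gap without overlap (log2 change -0.15 ± 0.08, limma adjusted p = 0.089). In F2 it went from 1216, 1285 and 1204 to 520, 449 and 481, and in E1 from 959, 820 and 883 to 444, 487 and 478. The highest treated clone library, at 520 normalized counts, was far below the lowest WT library, at 1214. The log2 change was -1.35 ± 0.08 in F2 (limma adjusted p = 1.3e-11) and -0.91 ± 0.08 in E1 (limma adjusted p = 5.5e-09), the latter under the fold limit. PCDHAC1 was lower in all treated libraries of each line: 150, 137 and 147 from 223, 243 and 224 in WT, 99, 98.6 and 102 from 231, 207 and 215 in E1, and 116, 88.8 and 105 from 194, 166 and 155 in F2. Its log2 change was -1.12 ± 0.12 in E1 (limma adjusted p = 1.6e-07), -0.67 in WT and -0.73 in F2.

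In the beta array the abundant PCDHB2 and the low PCDHB16 and PCDHB14 behaved differently. PCDHB2 measured 797, 814 and 760 with DMSO and 759, 782 and 707 with tazemetostat in WT, 746, 603 and 794 against 632, 710 and 614 in E1, and 880, 889 and 783 against 666, 629 and 649 in F2. The groups overlapped in WT and E1, and F2 alone had an adjusted p under 0.05, with a log2 change of -0.39 ± 0.09 (limma adjusted p = 0.0016). PCDHB3 ranged from 48.5 to 105 over all libraries, with log2 changes of -0.32, -0.59 and -0.46 for WT, E1 and F2. PCDHB4, from 8.42 to 40, had no adjusted p under 0.05 in any line.

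PCDHB16 fell in all 3 lines. It measured 35.8, 41.5 and 60.6 with DMSO and 11.8, 11.2 and 13.5 with tazemetostat in WT, 67.6, 56 and 46.1 against 10.7, 20.2 and 17.6 in F2, and 12.5, 8.69 and 11.7 against 4.26, 2.9 and 2.83 in E1. No treated library reached the DMSO range of its line, and E1 with DMSO was already as low as WT with tazemetostat. The log2 change was -1.80 ± 0.26 in WT (limma adjusted p = 8.6e-06), -1.47 ± 0.26 in E1 (limma adjusted p = 0.00014) and -1.78 ± 0.26 in F2 (limma adjusted p = 1.4e-05).

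PCDHB14 also fell in all 3 lines, from 16.6, 13.2 and 16.1 to 1.97, 0.935 and 11.1 in WT, from 31.3, 33.8 and 27.3 to 18.1, 13.5 and 9.42 in E1, and from 19.5, 18.7 and 14.6 to 5.83, 8.07 and 3.7 in F2. The groups did not overlap, although WT tazemetostat replicate 3 stood far above the other two. Its log2 change was -1.98 ± 0.46 (limma adjusted p = 0.0011), -1.15 ± 0.46 (limma adjusted p = 0.049) and -1.48 ± 0.46 (limma adjusted p = 0.012). The call in E1 was lost when any library of E1 other than tazemetostat replicate 1 was left out (limma adjusted p of 0.062 to 0.17), and in a fit with replicate numbers as a block (limma adjusted p = 0.062). The call in F2 was lost without F2 tazemetostat replicate 3 (limma adjusted p = 0.06). PCDHB9 fell in F2, from 22.5, 32.2 and 36.4 to 14.6, 11.1 and 10.2 (log2 change -1.26 ± 0.25, limma adjusted p = 0.0003), with log2 changes of -0.83 in WT and -0.51 in E1.

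In the gamma array PCDHGA4 and PCDHGB2, neighbours in the first part of the array, fell in each line. PCDHGA4 had 23.6, 21.7 and 20.8 with DMSO and 3.94, 4.68 and 1.23 with tazemetostat in WT, 26.6, 17.6 and 15.8 against 2.91, 5.05 and 0.925 in F2, and 31.3, 29 and 33.1 against 7.45, 10.6 and 22.6 in E1. Treated libraries of WT and F2 were near the floor, and those of E1 were spread widely with replicate 3 the highest. The log2 change was -2.53 ± 0.42 in WT (limma adjusted p = 4e-05), -1.28 ± 0.42 in E1 (limma adjusted p = 0.019) and -2.52 ± 0.42 in F2 (limma adjusted p = 5.7e-05). The call in E1 was lost without E1 tazemetostat replicate 1 (-0.95, limma adjusted p = 0.1) or replicate 2 (-1.18, limma adjusted p = 0.059). PCDHGB2 went from 26.2, 17 and 25.6 to 6.9, 5.61 and 3.69 in WT, from 24.1, 15.4 and 20.5 to 11.7, 4.84 and 8.48 in E1, and from 35.9, 36.3 and 20.6 to 6.8, 8.07 and 7.4 in F2. Its log2 change was -1.91 ± 0.31, -1.22 ± 0.31 and -1.88 ± 0.31 (limma adjusted p of 3e-05, 0.0033 and 4.7e-05), and the call in E1 was lost without E1 tazemetostat replicate 2 (-0.91).

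PCDHGB7 and PCDHGA10, next to each other further along the array and its highest members per length, had lower levels with tazemetostat in WT, PCDHGB7 past the threshold and PCDHGA10 under the fold limit, and neither was called in a clone. PCDHGB7 measured 303, 312 and 278 with DMSO and 158, 152 and 126 with tazemetostat in WT. In F2 it stayed at 302, 282 and 324 against 292, 287 and 289, and in E1 it was low with either treatment, at 152, 92.7 and 139 against 117, 101 and 105. The log2 change in WT was -1.04 ± 0.15 (limma adjusted p = 6.4e-06) and was -0.94 without WT tazemetostat replicate 3, under the fold limit. PCDHGA10 measured 60.3, 76.3 and 70 against 39.4, 51.4 and 43.1 in WT (log2 change -0.62 ± 0.16, limma adjusted p = 0.0023). It measured 33.9, 30.9 and 30.2 against 39.4, 30 and 32 in E1 (0.08 ± 0.16, limma adjusted p = 0.7), and 83, 83 and 71.6 against 104, 87.8 and 96.2 in F2 (0.27 ± 0.16, limma adjusted p = 0.16). All treated F2 libraries were above the DMSO libraries for PCDHGA10.

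**Figure D4:**
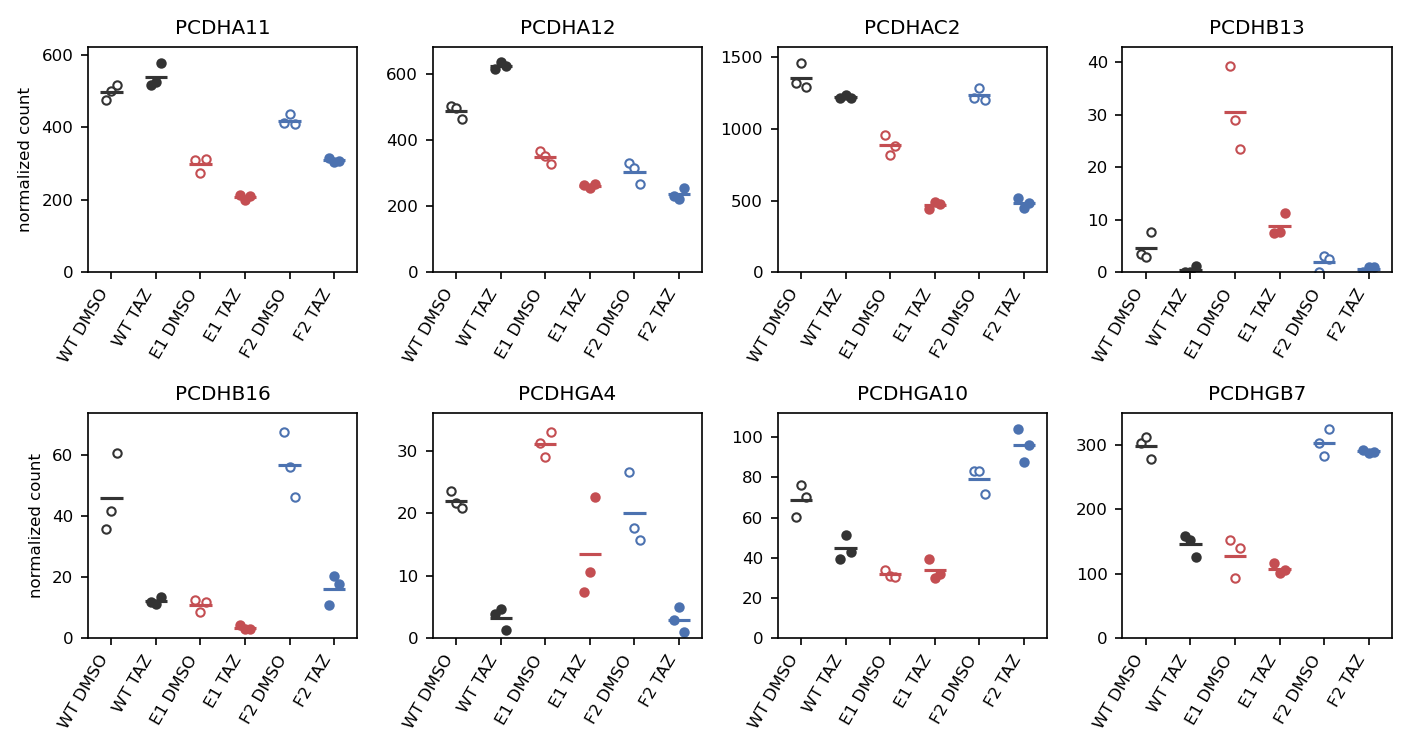
Normalized counts of 8 members in each of the 18 libraries (open circles DMSO, filled circles tazemetostat, TAZ; lines group means; each panel has its own axis from 0). PCDHAC2 is at 520 or less in the treated clones alone, PCDHB16, PCDHGA10 and PCDHGB7 are low in E1 with DMSO, and PCDHB13 reaches 23.4 to 39.3 in E1 with DMSO alone.

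The 40 members under the test limit gave few reads each. Their summed level was 175 ± 27.8 with DMSO and 66.8 ± 7.04 with tazemetostat in WT (38.1%), 208 ± 31.8 and 76.8 ± 16.6 in E1 (36.9%), and 159 ± 30.1 and 91.2 ± 14.4 in F2 (57.4%), with no overlap in any line. These low members were examined with edgeR on the recovered reads (quasi-likelihood test, no filter), a test chosen after seeing the data that covered 35344 genes. By the same thresholds 8 of the 40 were lower in WT, 10 in E1 and 5 in F2. In each line 0 were higher. Over all genes in that test 4.03% were lower and 10.9% higher in WT, 2.43% and 8.23% in E1, and 2.32% and 9.63% in F2. Without a filter, limma called 11 of the 40 lower in WT (4.25% of all genes), 11 in E1 (2.47%) and 5 in F2 (2.41%), and 1 higher, in F2, where 10.9% of all genes were higher (11.9% and 9.08% in WT and E1). That member was the pseudogene PCDHB17, with means of 0.346 ± 0.599 and 3.26 ± 1.22 normalized counts, near the floor, and edgeR did not call it. PCDHB11 and PCDHGB1 were lower in all 3 lines by edgeR. PCDHB11 had a group mean of 9.95 ± 5.03 with DMSO and 0.935 ± 1.62 with tazemetostat in WT, and PCDHGB1 one of 18.4 ± 0.437 and 4.76 ± 3.82. PCDHGC5, the 1 C-type of the gamma cluster above the floor, went from 6.96 ± 3.09 to 1.71 ± 1.09 in WT (edgeR log2 change -1.94, adjusted p = 0.018) and was 5.91 ± 1.84 and 6.92 ± 1.59 for E1, and 7.66 ± 4.23 and 8.45 ± 7.17 for F2.

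The next comparison asked how each RB1-deleted clone differed from the control line with DMSO alone. In E1, 3 of the 15 tested members were lower and 0 higher: PCDHB16, PCDHGA10 and PCDHGB7. Over all genes tested 2.69% were called lower and 2.35% higher. The log2 difference from WT was -1.95 ± 0.26 for PCDHB16 (limma adjusted p = 2e-05), -1.09 ± 0.16 for PCDHGA10 (limma adjusted p = 4.3e-05) and -1.24 ± 0.15 for PCDHGB7 (limma adjusted p = 4.5e-06). The alpha sum of E1 was 68.7% of WT and the gamma sum 58.2%, both without overlap, while the beta sums overlapped.

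In the clone F2 with DMSO, by limma, 0 of 15 members were past the threshold, against 2.09% of all genes lower and 0.885% higher. At an unadjusted p under 0.05, 0 were higher and 3 lower, and edgeR and DESeq2 called 0 of the same members. PCDHA12 had the largest of these differences, at -0.68 ± 0.09 (limma adjusted p = 2.7e-05). Without a filter edgeR called PCDHGB1 lower in F2, at 5.12, 5.19 and 7.28 normalized counts against 18.3, 18.8 and 18 in WT (edgeR log2 difference -1.62, adjusted p = 0.0051), where that test called 0.976% of all genes lower and 0.557% higher. The alpha sum of F2 was 82.7% of WT, without overlap, and the beta and gamma sums overlapped those of WT.

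A direct comparison of E1 with F2 followed. In DMSO, PCDHB16, PCDHGA10 and PCDHGB7 were lower in E1 than in F2 (log2 differences -2.26, -1.29 and -1.27, limma adjusted p of 2.1e-06, 3.7e-06 and 2.2e-06), where 3.52% of all genes were lower and 4.05% higher. PCDHB13 went the other way. It had 39.3, 29 and 23.4 normalized counts in E1 with DMSO, against 3.49, 2.83 and 7.57 in WT and 0, 3.11 and 2.43 in F2. PCDHB13 was under the limit of the main test, and edgeR without a filter gave log2 differences of 2.72 against WT (adjusted p = 2.3e-08) and 3.99 against F2 (adjusted p = 7.6e-12). That test called 1.48% of all genes higher and 1.39% lower against WT, and 2.38% higher and 1.98% lower against F2. Under tazemetostat PCDHB13 in E1 fell to 7.45, 7.74 and 11.3, still above the 0 to 1.23 in the treated libraries of the other lines. PCDHB16 and PCDHB13, both in the beta array, thus lay on opposite sides of WT in the same clone.

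Under tazemetostat, 3 of the 5 tested alpha members were called lower in E1 than in WT and 2 of 5 in F2, together with beta and gamma members. In E1, PCDHA11, PCDHA12, PCDHAC2 and PCDHB16 were lower than in WT and PCDHB14 and PCDHGA4 higher, against 5.95% of all genes lower and 5.40% higher. In F2, PCDHA12 and PCDHAC2 were lower and PCDHGA10 higher, against 4.97% and 7.31%. PCDHAC2 had log2 differences of -1.38 ± 0.08 in E1 (limma adjusted p = 7.2e-11) and -1.34 ± 0.08 in F2 (limma adjusted p = 8.4e-11), and PCDHA12 of -1.25 ± 0.09 (limma adjusted p = 2.5e-09) and -1.40 ± 0.09 (limma adjusted p = 4.9e-10). PCDHA11 differed by -1.37 ± 0.08 in E1 (limma adjusted p = 1.9e-10) and, under the fold limit, by -0.80 ± 0.08 in F2. The gamma array was higher in F2 than in WT: its sum was 200% of WT, PCDHGA10 differed by 1.09 ± 0.16 (limma adjusted p = 1.3e-05), and PCDHGB7 by 1.00 ± 0.15, just under the fold limit. The comparisons of the lines under the drug and of the drug within lines share libraries.

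Between the treated clones, PCDHB16, PCDHGA10 and PCDHGB7 were again lower in E1 than in F2 (log2 differences -1.96, -1.48 and -1.42, limma adjusted p of 1.6e-05, 9.6e-07 and 7.4e-07). PCDHGA4 was higher in E1, at 1.89 ± 0.42 (limma adjusted p = 0.0021). Of all genes 4.43% were lower and 2.39% higher. PCDHAC2, PCDHA12 and PCDHB2 differed by -0.04, 0.15 and 0.01 on the log2 scale, with standard errors of 0.08, 0.09 and 0.09.

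The last comparison was of the responses to tazemetostat in a clone and in the control line, as the log2 change in the clone minus that in WT. Of the 15 tested members, PCDHAC2 was the 1 past the threshold, in F2, with a difference of -1.20 ± 0.11 (limma adjusted p = 1.8e-07). Of all genes 2.66% were lower and 4.82% higher in that contrast. In E1 no tested member passed the threshold (0 higher and 0 lower by limma, edgeR and DESeq2), 2 members were higher and 4 lower at an unadjusted p under 0.05, and 5.21% of all genes were lower and 4.79% higher. Without a filter, edgeR called PCDHB6 lower (-3.14, adjusted p = 0.013), among 1526 of 35344 genes called. PCDHB6 went from 12.4 ± 6.6 to 0.959 ± 0.967 in E1 and from 5.58 ± 3.37 to 4.47 ± 3.62 in WT. Limma without a filter also called PCDHB6 lower, and PCDHGA3, at the floor, higher. With no fold limit, PCDHAC2, PCDHA11 and PCDHA12 of the alpha array lay on one side: the difference was -0.76 ± 0.11 for PCDHAC2 in E1 (limma adjusted p = 2.1e-05), -0.64 ± 0.11 in E1 and -0.56 ± 0.11 in F2 for PCDHA11 (limma adjusted p = 0.00029 and 0.0013), and -0.77 ± 0.13 and -0.72 ± 0.13 for PCDHA12 (limma adjusted p = 0.00013 and 0.00037). The leading gamma members lay on the other: 0.81 ± 0.21 in E1 and 0.97 ± 0.21 in F2 for PCDHGB7 (limma adjusted p = 0.0055 and 0.0019), and 0.70 ± 0.22 and 0.89 ± 0.22 for PCDHGA10 (limma adjusted p = 0.021 and 0.0061). The remaining tested alpha members were less alike. PCDHAC1 differed by -0.45 ± 0.16 in E1 and -0.07 ± 0.16 in F2 (limma adjusted p = 0.041 and 0.8). PCDHA4 differed by -0.24 ± 0.21 and -0.23 ± 0.21 (limma adjusted p = 0.41 and 0.47). PCDHB16, PCDHB14, PCDHGA4 and PCDHGB2, which fell in all 3 lines, had differences of 0.02 ± 0.37, 0.50 ± 0.65, 0.01 ± 0.60 and 0.03 ± 0.44 in F2, and of 0.33 ± 0.37, 0.83 ± 0.65, 1.26 ± 0.60 and 0.69 ± 0.44 in E1. None of these had an adjusted p under 0.05, and their standard errors are wide.

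Solitary protocadherins, which lie outside the arrays and have their own regulation, moved in both directions. Of 12 listed, 4 were tested, and in each line 3 rose with tazemetostat (PCDH1, PCDH9 and PCDH18) and 1 fell (PCDH17). Over all genes 14.5%, 11.3% and 13.3% were called higher and 6.77%, 3.78% and 3.71% lower in WT, E1 and F2. PCDH18 had 0 reads in every DMSO library and 132 ± 19.9, 119 ± 10.9 and 89.6 ± 14.2 normalized counts with tazemetostat in WT, E1 and F2. PCDH18 thus entered the test through its treated libraries alone, and the count of rises is not read as a trait of the list. PCDH9 rose from 113 ± 12.2 to 792 ± 39 in WT, from 8.72 ± 2.54 to 705 ± 67.6 in E1 and from 151 ± 8.59 to 472 ± 17.5 in F2. PCDH17 fell from 372 ± 20.2 to 45.3 ± 8.15 in WT. In the clones it was already low with DMSO, at 7.23 ± 0.523 in E1 and 25.6 ± 8.88 in F2. With tazemetostat it was near the floor there, at 0.669 ± 0.583 in E1 and 1.23 ± 2.14 in F2.

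Of 18 tested genes for chromosome architecture and silencing, 16, 7 and 8 had an adjusted p under 0.05 with tazemetostat in WT, E1 and F2. The share of all genes at that limit was not computed, so these counts are not read as a trait of the list. Their median log2 changes were -0.46, -0.04 and -0.16. DNMT1 was called higher in treated E1 and F2 than in treated WT (log2 differences 1.11 and 1.15), where 5.40% and 7.31% of all genes were higher. With the fold limit, 1 of the 18 changed past the threshold with tazemetostat, in WT, where 6.77% of all genes were lower. This was DNMT3B, a de novo DNA methyltransferase, lower in WT at 374 ± 16.3 against 1056 ± 51.6 (log2 change -1.49 ± 0.08, limma adjusted p = 9.1e-12), with -0.99 in E1 and -0.98 in F2 just under the fold limit. CTCF had log2 changes of -0.26 ± 0.06, 0.16 ± 0.06 and 0.05 ± 0.06 in WT, E1 and F2, the cohesin subunit RAD21 of -0.47, -0.06 and -0.14, and SMCHD1, a silencing protein that acts at these arrays, of -0.76, -0.10 and -0.30. EZH2, the drug's target, had 2478 ± 89.4 normalized counts in untreated and 876 ± 42.1 in treated WT (log2 change -1.50 ± 0.07, limma adjusted p = 6.7e-13), and log2 changes of -0.08 in E1 and -0.27 in F2. The part of these genes in the changes of the arrays was not tested.

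Of 15 listed genes that flank the arrays on chromosome 5, 12 were tested and 0 were called in any line with tazemetostat, with median log2 changes of -0.05, -0.07 and -0.02 for WT, E1 and F2. With no fold limit 7, 2 and 4 of the 12 had an adjusted p under 0.05, a limit at which the share of all genes was not computed. In WT, TMCO6 (-0.90, limma adjusted p = 7e-08) and RELL2 (0.97, limma adjusted p = 1.1e-05) were just under the fold limit, on opposite sides of 0. Both were named after their values were seen. RELL2 was the 1 flanking gene called in other comparisons, lower in both treated clones than in treated WT and in both response differences. Among 18 tested cytoplasmic partners of the protocadherins, 4 rose and 0 fell in WT and F2, and 3 rose and 0 fell in E1. These are 22.2% and 16.7% of the list, against 14.5%, 13.3% and 11.3% of all genes called higher in WT, F2 and E1. The kinases FYN and RET and the membrane-cytoskeleton protein MARCKS rose in each line, FYN from 53.8 ± 3.3 to 887 ± 19.8, RET from 8.33 ± 3.41 to 154 ± 2.38 and MARCKS from 13.5 ± 2.89 to 3034 ± 204 in WT. MARCKS, with DMSO means of 1.62 in E1 and 0.346 in F2, entered the test mainly through its treated libraries.

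Neuron markers were listed because neurons are the cells best known for these arrays. Of 14 listed, 5 were tested, and 4 were called higher with the drug for WT and F2 and 3 for E1, where 14.5%, 13.3% and 11.3% of all genes were higher. The test limit is a mean over all 18 libraries, so a marker can enter the test through its treated libraries. SYT1 did so, with DMSO means of 5.26, 0.325 and 0.341 in WT, E1 and F2, as did LUM among the fibroblast markers below. Counts of rises among tested markers are therefore not read as a trait of a list. MAP2, SYT1 and INA rose in each line and TUBB3 in WT and F2. SYP, a synaptic vesicle protein, went the other way under the fold limit, with log2 changes of -0.51, -0.77 and -0.69 (limma adjusted p of 0.0012, 3e-05 and 9.1e-05). The summed level of the 14 went from 5408 to 6153 normalized counts with DMSO to 22692 to 23192 with tazemetostat in WT, from 3948 to 8464 to 7861 to 9726 in E1, and from 2887 to 3775 to 7378 to 8384 in F2. The number of the 14 at the floor went from 8 to 2 in WT, from 10 to 6 in E1 and from 9 to 2 in F2, and SNAP25 and ELAVL4 had at most 2 and 1 reads in any library. MAP2, a dendritic microtubule protein, rose from 20.1 ± 10.1 to 1684 ± 106 in WT. Of 5 tested fibroblast markers 3 rose and 1 fell in WT, 2 rose and 2 fell in E1, and 3 rose and 2 fell in F2, and their summed level fell from 29708 to 32947 to 9711 to 9885 in WT, from 34980 to 38889 to 10808 to 11235 in E1, and from 28775 to 31814 to 19857 to 21901 in F2. Most of that sum is COL3A1, which went from 26521 ± 1684 to 4349 ± 55.8 in WT, while COL1A1, COL1A2 and LUM rose there. The 4 immune markers summed to at most 25.9 in any library, PTPRC and CD3E had at most 2 reads, and CD68, the 1 tested, was called higher in E1. The part of these marker changes in the changes of the arrays was not tested.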

How the data were processed

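RNA was measured by poly(A)-selected, stranded, paired-end sequencing of 18 libraries, per the labels' protocols. Per the submitters' processing notes, Trim Galore 0.4.4, STAR 2.6.0a, HTSeq, DESeq2 and build hg19 were named, without roles, counting mode or annotation. The authors deposited 1 table holding a signal, namely gene-level counts after division by the size factor of each library. Multiplied by that factor, 100% of values were whole reads within 1e-06, and the factors ranged from 0.812 to 1.145. Genes with a mean of at least 10 (16154 of 55765) were tested on the log2(value + 1) scale with limma 3.58.1 (R 4.3.3), as 1 fit of 6 group means with a mean-variance trend and 11 contrasts, with Benjamini-Hochberg adjustment over all genes tested. The spread of a gene was estimated once over all groups, so its standard error is the same in each line. Replicates of E1 with DMSO differed most, with a chi-square per degree of freedom of 29.7 to 61.9 between their reads. In the other groups it was at most 21.4. Log2 changes on this scale understate those of low genes. Past the threshold means an adjusted p under 0.05 together with a log2 change of 1 or more in size. The floor was 3 reads in a library and covers counting error only.

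The members and lists were chosen with earlier results of these data known. Values in every library are given for the 3 members of each cluster with the highest mean, except PCDHB3, and for the alpha C-types. They are also given for the 2 largest rises and falls past the threshold per cluster and comparison. PCDHB3 and the gamma C-types are given by ranges or group means. Of each list at most 3 genes past the threshold with tazemetostat are given with values. Other genes named are said to be so or are given by ranges. Alternatives were other pseudocounts, filters, scalings, fits and left-out libraries, and edgeR 4.0.16 and DESeq2 1.42.0 on the recovered reads. The main limma fit was tested on simulated data for tazemetostat in WT and for the response difference of E1. On the same simulated data edgeR was tested for tazemetostat in WT. DESeq2 and the other alternatives were not tested in this way. Exon sharing came from GENCODE v29 by symbol, and promoter windows from RefSeq (GRCh38.p14), which is not the build of the table, so that no coordinates of the table's genes are given and the order along the arrays is that of GENCODE v29. Figures were drawn with matplotlib 3.10.9.

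The replicate numbers are shared by the groups, but deviations of same-numbered libraries did not correlate above 0.1 in every pair between the treatments of any line. Between WT and F2 with DMSO all 3 pairs did (0.108 to 0.375), and there the fit with the block called 0 members, as did the fit without it. All 3 pairs of treated WT with DMSO-grown F2 did so too (0.164 to 0.372). Both pairings enter the response difference of F2, in which PCDHAC2 kept its call with the block. The main fit has no block.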

Additional observations from a re-analysis of the deposited data

Results flagged for a closer look

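PCDHAC2 responded differently to tazemetostat in F2 and in the control line, by the test of the difference itself: the log2 change in F2 minus that in WT was -1.20 ± 0.11 (limma adjusted p = 1.8e-07). PCDHAC2 was lower in 3 of 3 treated F2 libraries, at 484 ± 35.7 normalized counts against 1235 ± 44 with DMSO, and was 1223 ± 12.8 against 1359 ± 89.1 in WT.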

How the results depend on the processing

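The 45 calls of single members, EZH2 and RB1 kept their direction under every alternative that tested them, and all of them stayed past the threshold with edgeR, DESeq2, TMM scaling and scaling to the same total. A mean of at least 50 tested 25 of the 45, none of them calls of PCDHB14, PCDHB16, PCDHGA4 or PCDHGB2. Counts of members past the threshold that moved by over 1.5 times are given in the order of comparisons used above (tazemetostat in WT, E1 and F2, E1 and F2 against WT with DMSO and with tazemetostat, E1 against F2 with DMSO and with tazemetostat, response differences of E1 and F2), leaving out comparisons that did not move. With a pseudocount of 5 the count in E1 with tazemetostat was 2. Without a filter limma gave 16, 15, 12 (1 of them, PCDHB17, higher), 5, 3, 8 (F2 against WT with tazemetostat), 8, 9, 2 and 2, and edgeR 13, 15, 11, 6, 1, 7, 6, 10 and 1 (response of E1). With a mean of at least 50, where 9 members were tested, it was 1, 1, 1, 3 (E1 against WT with tazemetostat) and 2 (E1 against F2 with tazemetostat). With no fold limit it was 9, 10, 11, 7, 3, 10, 7, 8, 6 and 5 (the last 2 being responses, and E1 against F2 with tazemetostat being unmoved). Scaled to the same total, F2 against WT in DMSO gave 1 and the response of F2 gave 3. That scaling moved the median of all genes with tazemetostat in WT to -0.13 from 0.03.

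Log2 ratios of the array sums with tazemetostat (alpha -0.04, -0.74 and -0.88 in WT, E1 and F2, beta -0.23, -0.32 and -0.51, gamma -1.17, -0.55 and -0.20) became -0.19 for alpha and -0.39 for beta in WT when scaled to the same total. As means of log2(value + 1), which weight members equally, they were -0.34, -0.63 and -0.58 for alpha, -0.92, -1.10 and -0.66 for beta and -0.65 for gamma in F2. Without the highest member they were 0.06, -0.60 and -0.48 for alpha, -0.88, -1.01 and -0.95 for beta, and -1.39 in WT and -0.43 in F2 for gamma.

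Leaving out 1 library gave 5 to 6 members past the threshold with tazemetostat in WT, 2 to 5 in E1 (2 without E1 tazemetostat replicate 2) and 6 to 8 in F2. It gave 3 to 3 and 0 to 1 for E1 and F2 against WT in DMSO (1 without any F2 DMSO library), 6 to 6 and 3 to 5 with tazemetostat (5 without WT tazemetostat replicate 1), 3 to 5 and 4 to 5 for E1 against F2 (5 without F2 DMSO replicate 1), and 0 to 1 and 1 to 2 for the responses of E1 and F2. The response of E1 gave 1 without WT tazemetostat replicate 3, and that of F2 gave 2 without WT DMSO replicate 3, any WT tazemetostat library or F2 DMSO replicate 3. The sums ranged from -0.06 to -0.01, -0.79 to -0.69 and -0.92 to -0.84 for alpha, -0.26 to -0.21, -0.44 to -0.26 and -0.53 to -0.49 for beta, and -1.24 to -1.07, -0.67 to -0.45 and -0.24 to -0.17 for gamma.

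With replicate numbers entered as a block, the call of PCDHB14 with tazemetostat in E1 was lost (limma adjusted p = 0.062), which left 4 members there, and no other call of a member changed. Deviations of same-numbered libraries correlated between treatments with mean r of 0.154, 0.072 and 0.026 (WT, E1, F2). PCDHB14 in E1 also lost its call with a pseudocount of 0.5 (limma adjusted p = 0.071), with one of 5 (-0.96) and without a filter (limma adjusted p = 0.1). PCDHB16 and PCDHGB2 in E1 were under the fold limit with a pseudocount of 5 (-0.93 and -0.92). Depth limits the 40 members with a mean under 10, for which a difference may not have been detectable.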
